A study of Homo sapiens with 8 samples.

Results

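The genes described here build and run the vesicle traffic between the endoplasmic reticulum (ER) and the Golgi apparatus in CYP3A4-overexpressing HepG2 cells. The list held 56 of the 60230 genes in the deposited table and was chosen by gene symbol, with earlier results of these data known. It covered the COPII coat (11 genes), COPII exit site factors (6 genes), the COPI coat (9 genes), ARF GTPases with their activator GBF1 (4 genes), cargo receptors (15 genes), tethers and SNAREs (8 genes) and CREB3 family transcription factors (3 genes). Of these, 54 were among the 13404 genes with enough counts to be tested, and COPZ2 and CREB3L1 were not.

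COPII vesicles carry newly made proteins out of the ER. The GTPase SAR1 recruits SEC23 and SEC24, which select cargo, and SEC13 with SEC31 forms the outer cage. COPI vesicles, whose coatomer coat is recruited by the GTPase ARF1, return ER proteins and empty receptors from the Golgi. Hepatocytes release most plasma proteins along this route, and CREB3 family factors, which are released from Golgi membranes by proteolysis, are known activators of genes of the pathway.

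HepG2 is a human liver tumour cell line, and every sample came from a derivative that overexpresses the drug-metabolising enzyme CYP3A4 and was kept in blasticidin. Cells received 0.2% DMSO or a plastic-related bisphenol (compound 4, 5 or 6) for 24 h, each compound at its own half-maximal growth inhibitory concentration, and mRNA was sequenced from 2 samples per group. Compounds 4 and 6 share a methylene bridge between methylphenol rings and differ in the ring substituent, tert-butyl in compound 4 and cyclohexyl in compound 6, whereas compound 5 has an ethane bridge and carries additional tert-butyl groups in place of the methyl groups. The concentrations therefore differed between compounds, and any difference between compounds is also a difference between concentrations. The labels give day 1 and day 2 for the 2 samples of each group, which served only as the replicate number, and nothing states that the samples were separate cultures, so p-values measure the spread between these samples, which may be technical. The column names mark the first samples of compounds 4 and 5 as merged. Estimated counts summed to between 9472261 and 13308975 per sample. Levels are given as CPM, counts scaled to a common library total with TMM factors. CYP3A4 itself stood at 198 and 207 CPM with DMSO, at 287 and 216 CPM under compound 4, at 371 and 421 under compound 5 and at 170 and 171 under compound 6. CYP3A4 was thus highest with compound 5, and its part in the results was not tested. The 8 hepatocyte-derived markers were detected in every sample. They summed to between 32100 and 35700 CPM with DMSO and between 23900 and 29500 CPM in the treated samples, with ALB as the largest term. ALB, AFP, APOA1 and TF were lower in every treated sample than in both DMSO samples. FGB was higher with compound 5 (206 and 250 against 192 and 187 CPM) and TTR with compound 4 (126 and 149 against 99.3 and 74.6 CPM). SERPINA1 and HNF4A under compound 4 overlapped with DMSO. The part of these differences in the results was not tested. Leukocyte, endothelial and fibroblast markers summed to at most 0.164, 1.28 and 2.66 CPM with DMSO and at most 1.25, 2.06 and 8.64 CPM in the treated samples. Of these, PTPRC, CD3E, COL1A2 and DCN were at 0 in all 8 samples. In bulk RNA, fewer cells of a type and less RNA per cell cannot be told apart.

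Most changes of the transport genes were found with compound 5. In the edgeR quasi-likelihood fit with Benjamini-Hochberg adjustment over all genes, 34 of the 54 tested members rose (63.0%, against 13.9% of all genes called higher) and 4 fell (7.41%, against 14.2% of all genes called lower). The median log2 fold change of the members was 0.39, against -0.03 over all genes tested. Summed over the list, the members reached 11400 and 11100 CPM with compound 5, against 8600 and 8460 CPM with DMSO, an increase of 31.9%. Both compound 5 samples lay above both DMSO samples in 45 of the 54 members (83.3%, against 32.9% of all genes). Rises were found in all 7 sub-complexes, from the 8 tethers and SNAREs, all of which were called, to 6 of 15 cargo receptors.

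**Figure D1:**
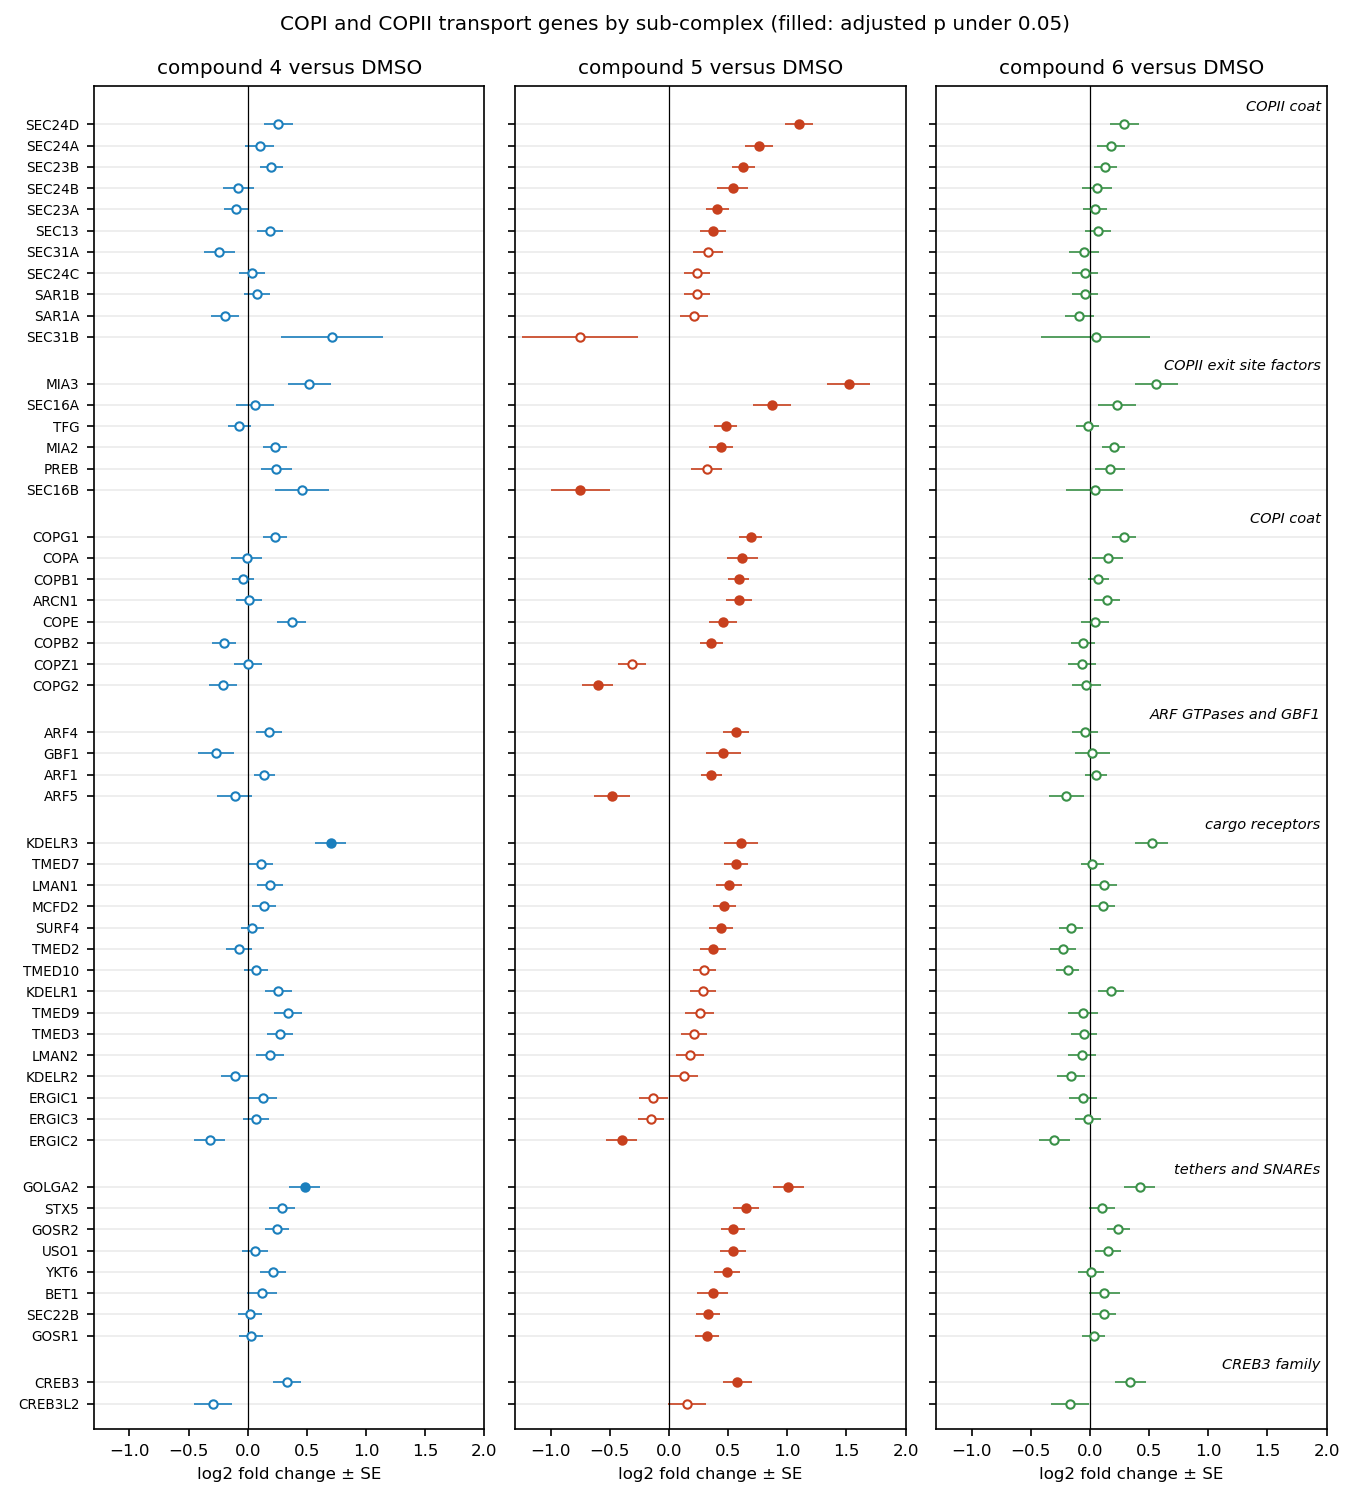
Log2 fold change against DMSO (x axis, ± SE from the edgeR fit) of the 54 tested members (y axis, grouped by sub-complex) for compounds 4, 5 and 6, with filled points for adjusted p under 0.05. With compound 5, 38 points are filled and 46 lie to the right of 0, whereas 2 are filled with compound 4 and 0 with compound 6.

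Without a single library the number of members called with compound 5 dropped from 38 to 18 (without DMSO replicate 1), 23 (without DMSO replicate 2) and 21 (without either compound 5 replicate). Calls over all genes, in either direction, dropped alongside, from 28.1% to between 12.5% and 16.0%, against 70.4% and between 33.3% and 42.6% of the members. The median stayed between 0.39 and 0.41 in those fits. The 4 lower calls became 0 without DMSO replicate 2, 1 without DMSO replicate 1, either compound 5 replicate or either compound 6 replicate, and 2 with RLE scaling or DESeq2, both of which lost SEC16B and ERGIC2. DESeq2 also called PREB, SEC31A, KDELR1 and TMED10 higher. Scaling by library size alone lowered the median of all genes to -0.136 and that of the members to 0.28. It called 31 members, 26 higher and 5 lower, as did upper-quartile scaling, and both added COPZ1 to the lower ones. With library size alone the split over all genes moved from 1857 higher and 1906 lower to 1358 higher and 2718 lower.

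**Figure D2:**
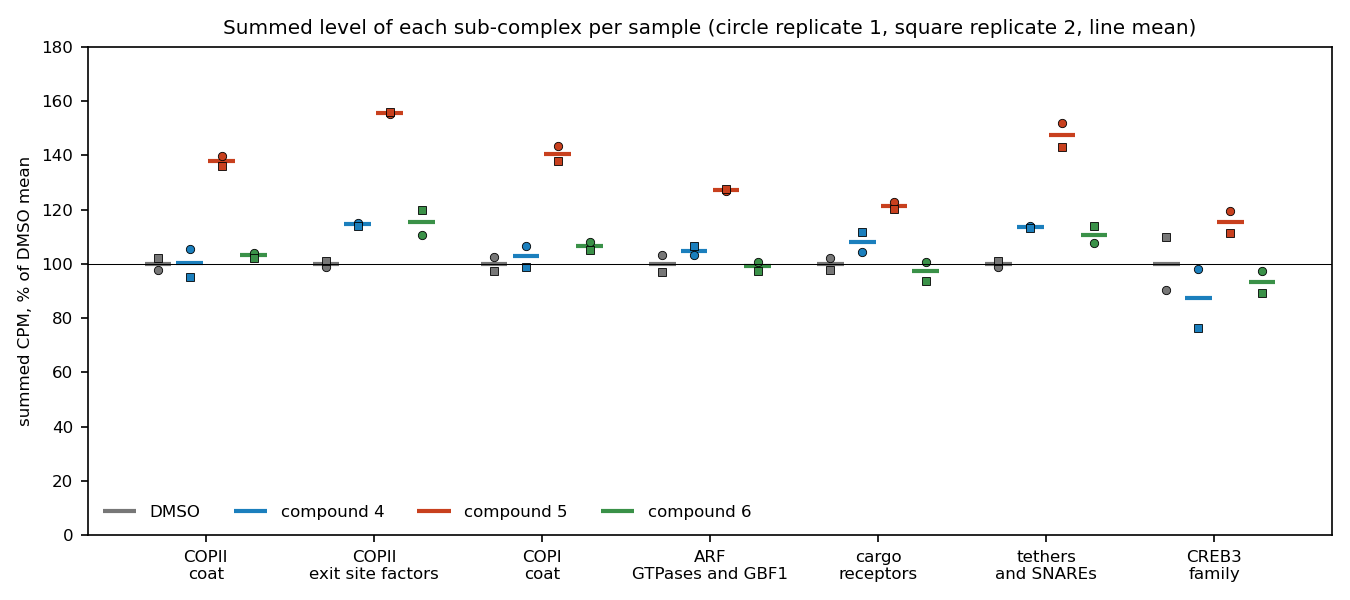
Summed CPM of each sub-complex in each sample as a percentage of its DMSO mean (y axis from 0), with circles for replicate 1, squares for replicate 2 and lines for group means. Both compound 5 samples lie above both samples of every other group in all 7 sub-complexes, and the CREB3 family has the widest spread between DMSO replicates.

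In the COPII coat 6 of 11 genes rose with compound 5, with a median log2 fold change of 0.37, and the summed level went from 1530 and 1600 CPM to 2190 and 2130 CPM. The cargo-binding SEC24 paralogues differed in size of change. SEC24D (chr4:118722823-118838683, GRCh38) stood at 92.1 and 100 CPM with DMSO and at 204 and 208 CPM with compound 5. That is a 2.14-fold rise (log2 1.10 ± 0.12 SE, adjusted p = 0.000216). SEC24A had 98.2 and 109 CPM with DMSO and 183 and 168 CPM with compound 5 (log2 0.76 ± 0.12, adjusted p = 0.00164). The less abundant SEC24B had 29.8 and 33.1 CPM with DMSO and 44.7 and 47.0 CPM with compound 5 (log2 0.54 ± 0.13, adjusted p = 0.0122). In these 3 both compound 5 samples were the higher ones. SEC24C, at 154 and 154 CPM with DMSO and 187 and 179 CPM with compound 5, did not pass the test (log2 0.24, 95% interval 0.01 to 0.48, adjusted p = 0.11).

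Of the SEC23 pair, which stimulates GTP hydrolysis by SAR1, SEC23B had 158 and 170 CPM with DMSO and 248 and 260 CPM with compound 5 (log2 0.63 ± 0.10, adjusted p = 0.00126). SEC23A, the more abundant paralogue, rose by a log2 of 0.41 (adjusted p = 0.0122), and the cage protein SEC13 by 0.37 (adjusted p = 0.0248). The SEC13 call was lost with library-size or upper-quartile scaling. The remaining COPII coat genes did not pass the test. SEC31A, the SEC13 partner, had a log2 fold change of 0.33 with an adjusted p of 0.0858 (0.0411 in DESeq2), and the GTPases SAR1A and SAR1B had 0.21 and 0.24. SEC31B was scarce, at 0.864 to 3.20 CPM over all samples. With compound 5 it had a log2 fold change of -0.75 against DMSO and -1.46 against compound 4, neither of which was called. The latter was called under upper-quartile scaling or with at least 10 counts in every sample.

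Exit sites are the ER patches where COPII coats assemble. Here 4 of 6 genes rose, 1 fell, and the summed level increased by 55.7%, the most of the 7 sub-complexes. MIA3, also called TANGO1, loads bulky cargo such as collagen and lipoprotein particles into COPII carriers. MIA3 (ENSG00000154305, chr1:222618086-222668012) was measured at 51.8 and 52.2 CPM with DMSO and at 163 and 136 CPM with compound 5. Its 2.87-fold rise (log2 1.52 ± 0.18, adjusted p = 0.000299) had the largest log2 fold change of the members. Both compound 5 samples exceeded the highest value of any other sample, 87.0 CPM.

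SEC16A, the scaffold of exit sites, was at 95.8 and 109 CPM with DMSO and 195 and 180 CPM with compound 5 (log2 0.87 ± 0.16, adjusted p = 0.00294). TFG, which organises carriers at exit sites, went from 78.9 and 78.7 CPM to 106 and 114 CPM (log2 0.48 ± 0.10, adjusted p = 0.00535). MIA2, the partner of MIA3, rose by a log2 of 0.44 (adjusted p = 0.00931). SEC16B, the scarce paralogue of SEC16A, went the other way, at 5.61 and 4.60 CPM with DMSO and 3.48 and 2.59 CPM with compound 5. The drop of SEC16B had an adjusted p of 0.0486 (log2 -0.75 ± 0.25), was not called by DESeq2 (adjusted p = 0.204), and rests on a transcript that shares 58.6% of its 31-base words with other genes, chiefly the readthrough gene CRYZL2P-SEC16B. PREB, the exchange factor that switches SAR1 on, did not pass the test (log2 0.32, adjusted p = 0.0926, and 0.0487 in DESeq2).

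**Figure D3:**
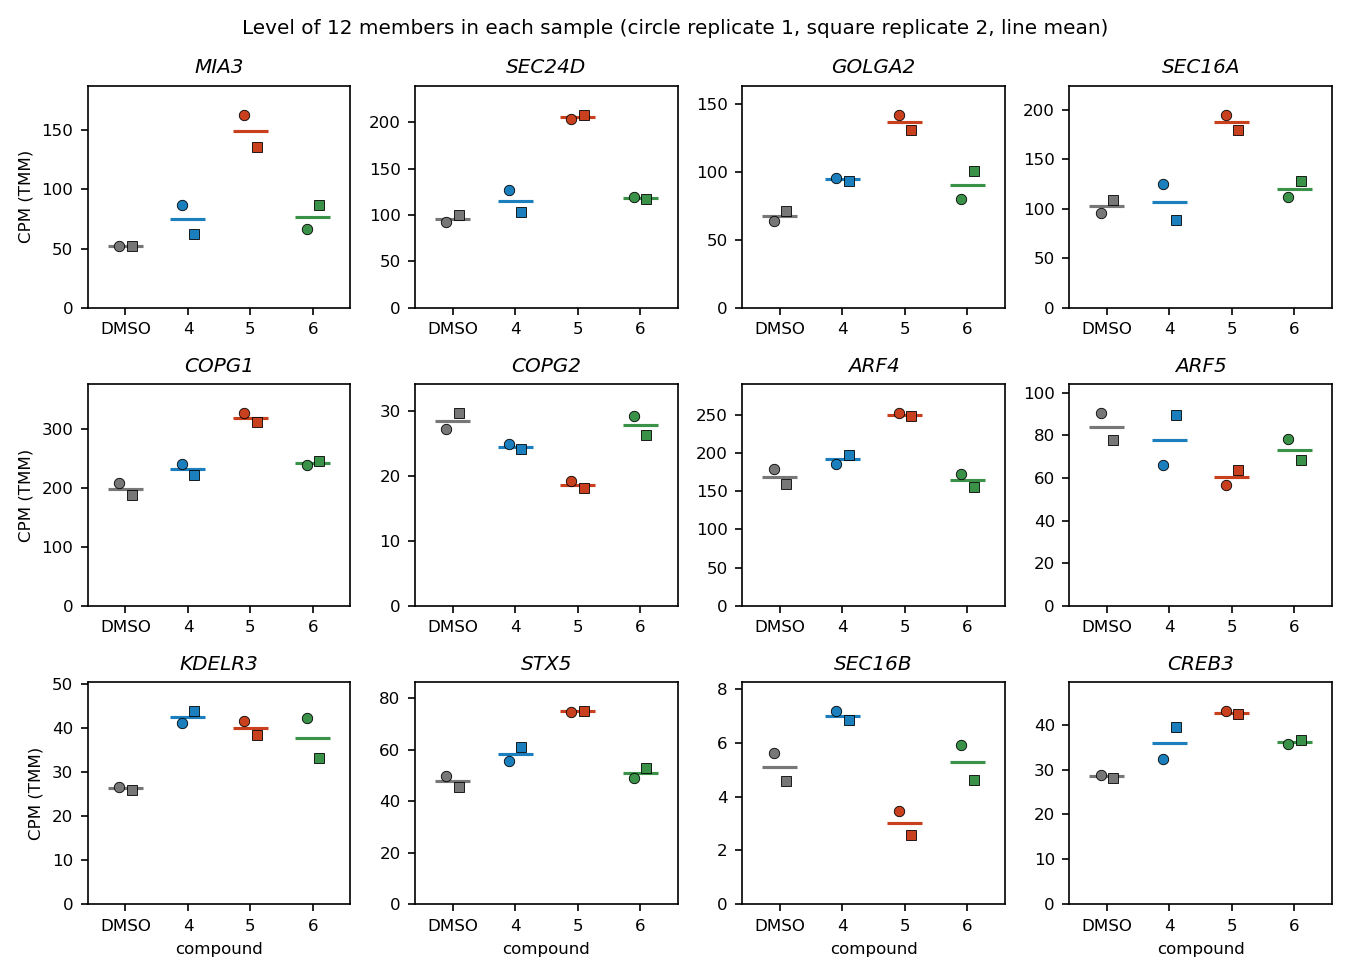
CPM (y axis, from 0) of 12 members in the 8 samples, by group (x axis), with circles for replicate 1, squares for replicate 2 and lines for group means. Both compound 5 samples lie above all others for MIA3, SEC24D, GOLGA2, SEC16A, COPG1, ARF4, STX5 and CREB3 and below all others for COPG2, ARF5 and SEC16B, while KDELR3 is higher than DMSO in all 6 treated samples.

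Promoter sequences are shown for members of several sub-complexes because they share a short element. RefSeq promoter windows (GRCh38.p14, 250 bases before to 50 bases after each start) were available for 49 of the 56 members, 66 windows in all because some genes have several starts. ARF4, KDELR2, SEC24D, USO1, TMED9, MIA2 and ERGIC1 had no entry. The windows were searched on both strands for TGACGTGG, the core of the unfolded protein response element bound by factors such as XBP1 and ATF6. A match was found for 11 of the 49 members (22.4%), against 1.24% of the 10021 tested genes with a window and 0.729% of all 35116 windows. The matched members were ARF1, COPA, COPB1, COPB2, GBF1, KDELR3, SEC16A, SEC23A, SEC24A and STX5, all of which rose with compound 5, and SEC16B, which fell. Of the 30 members with a window that were called higher with compound 5, 10 held it, as did 1 of the 19 others. These others were members called lower, not called or not tested. The members called higher were picked from these same data, and a link between the element and the rise was not tested. The cAMP response element TGACGTCA was found for 1 member, CREB3L2 (2.04%), and for 3.88% of the tested genes. TGATGNAAT, the composite element bound by ATF4 and C/EBP, was found for 0 members and 0.619% of the tested genes, and the ER stress response element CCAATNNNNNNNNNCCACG for 0 members and 0.15% of the tested genes. The reverse complement of the first element contains the last 5 letters of the ER stress response element, but no member window held both. A match describes these letters only, and binding was not measured.

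The 6 windows below belong to an exit site scaffold, a cargo-selecting coat subunit, a coatomer subunit, a SNARE and a retrieval receptor, followed by the matched member that fell. Capitals mark TGACGTGG or its reverse complement, and each sequence runs 5′ to 3′ on the strand of its gene: SEC16A at chr9:136484691-136484990 (minus strand), SEC24A at chr5:134648535-134648834 (plus), COPB1 at chr11:14499762-14500061 (minus), STX5 at chr11:62832002-62832301 (minus), KDELR3 at chr22:38467846-38468145 (plus) and SEC16B at chr1:177984235-177984534 (minus).
SEC16A: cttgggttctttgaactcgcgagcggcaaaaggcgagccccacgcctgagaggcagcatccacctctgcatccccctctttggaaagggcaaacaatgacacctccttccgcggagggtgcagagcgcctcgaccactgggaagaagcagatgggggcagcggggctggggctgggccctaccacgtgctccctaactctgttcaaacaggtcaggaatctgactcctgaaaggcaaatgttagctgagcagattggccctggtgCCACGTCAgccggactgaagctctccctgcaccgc
SEC24A: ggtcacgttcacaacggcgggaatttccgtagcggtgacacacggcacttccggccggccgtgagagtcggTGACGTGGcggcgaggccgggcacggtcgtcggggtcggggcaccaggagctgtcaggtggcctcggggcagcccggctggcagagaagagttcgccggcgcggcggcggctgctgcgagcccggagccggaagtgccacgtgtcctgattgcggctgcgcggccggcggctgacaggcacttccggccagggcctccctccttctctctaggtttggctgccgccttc
COPB1: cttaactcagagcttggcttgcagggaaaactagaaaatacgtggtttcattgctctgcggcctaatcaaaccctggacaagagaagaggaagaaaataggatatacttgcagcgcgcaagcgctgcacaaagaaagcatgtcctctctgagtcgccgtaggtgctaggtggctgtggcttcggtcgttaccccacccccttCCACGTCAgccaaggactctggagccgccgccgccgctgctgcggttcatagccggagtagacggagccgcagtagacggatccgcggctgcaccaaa
STX5: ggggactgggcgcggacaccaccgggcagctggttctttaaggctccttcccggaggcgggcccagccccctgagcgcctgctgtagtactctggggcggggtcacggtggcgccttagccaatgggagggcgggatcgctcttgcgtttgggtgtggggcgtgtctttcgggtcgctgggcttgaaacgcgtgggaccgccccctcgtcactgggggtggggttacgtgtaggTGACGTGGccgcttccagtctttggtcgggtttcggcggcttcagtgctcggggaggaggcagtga
KDELR3: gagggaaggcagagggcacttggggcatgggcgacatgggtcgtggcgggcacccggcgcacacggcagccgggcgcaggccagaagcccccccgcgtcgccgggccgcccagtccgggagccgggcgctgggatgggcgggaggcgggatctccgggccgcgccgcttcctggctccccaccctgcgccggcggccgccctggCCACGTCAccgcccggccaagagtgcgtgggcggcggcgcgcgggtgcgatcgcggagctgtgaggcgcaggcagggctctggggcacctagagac
SEC16B: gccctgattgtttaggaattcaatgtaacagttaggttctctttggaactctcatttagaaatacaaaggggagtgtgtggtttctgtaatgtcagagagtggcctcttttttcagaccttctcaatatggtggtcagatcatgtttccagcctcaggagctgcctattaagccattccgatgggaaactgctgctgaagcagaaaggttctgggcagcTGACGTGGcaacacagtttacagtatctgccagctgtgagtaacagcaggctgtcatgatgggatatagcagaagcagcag
Relative to the start, the first base of the element lay at 16 in SEC16A, -179 in SEC24A, -48 in COPB1, -16 in STX5, -46 in KDELR3 and -31 in SEC16B.

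In the COPI coat 6 of the 8 tested subunits rose and 1 fell, with a median log2 fold change of 0.52. The summed level went from 1450 and 1380 CPM with DMSO to 2030 and 1950 CPM with compound 5. COPG1, the gamma subunit (chr3:129249606-129277773), had 207 and 188 CPM with DMSO and 326 and 311 CPM with compound 5 (log2 0.69 ± 0.10, adjusted p = 0.00091). COPA, the alpha subunit, whose promoter was among the 11 matched ones, had 292 and 278 CPM with DMSO and 464 and 416 CPM with compound 5 (log2 0.62 ± 0.13, adjusted p = 0.00502). ARCN1, the delta subunit, went from 188 and 182 CPM to 289 and 268 CPM (log2 0.59 ± 0.11, adjusted p = 0.00416). COPB1, COPE and COPB2 also rose, by log2 values of 0.59, 0.46 and 0.36, and the COPB2 call was lost with library-size or upper-quartile scaling.

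The second gamma subunit went in the opposite direction. COPG2 (chr7:130506238-130668748) had 27.2 and 29.7 CPM with DMSO and 19.2 and 18.2 CPM with compound 5, the lowest values of the 8 samples (log2 -0.60 ± 0.13, adjusted p = 0.00593). Per kilobase of transcript, COPG1 made up 88.6% and 86.6% of the gamma subunit signal with DMSO and 94.5% and 94.6% with compound 5. The zeta subunit COPZ1 did not pass the test (109 and 101 against 83.2 and 86.0 CPM, adjusted p = 0.0755), although it was called lower with library-size or upper-quartile scaling. Its paralogue COPZ2 had at most 0.521 CPM in any sample and was not tested.

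The ARF GTPases recruit coatomer, and GBF1 is the exchange factor that switches them on at the early Golgi. ARF4 was at 179 and 159 CPM with DMSO and 252 and 248 CPM with compound 5 (log2 0.57 ± 0.11, adjusted p = 0.00355). GBF1 was at 82.8 and 93.5 CPM with DMSO and 127 and 115 CPM with compound 5 (log2 0.46 ± 0.15, adjusted p = 0.0388), and ARF1 at 270 and 254 CPM with DMSO and 329 and 343 CPM with compound 5 (log2 0.36 ± 0.09, adjusted p = 0.0171). The calls of GBF1 and ARF1 were lost with library-size or upper-quartile scaling. ARF5 was lower, at 90.4 and 77.7 CPM with DMSO and 56.8 and 63.9 CPM with compound 5 (log2 -0.48 ± 0.15, adjusted p = 0.0414). That call did not pass with the replicate number as a block (adjusted p = 0.0539). Per kilobase, ARF5 made up 25.2% and 24.0% of the signal of the 3 ARF genes with DMSO and 14.0% and 15.3% with compound 5, while the share of ARF4 was 33.2% and 32.7% against 41.4% and 39.6%.

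**Figure D4:**
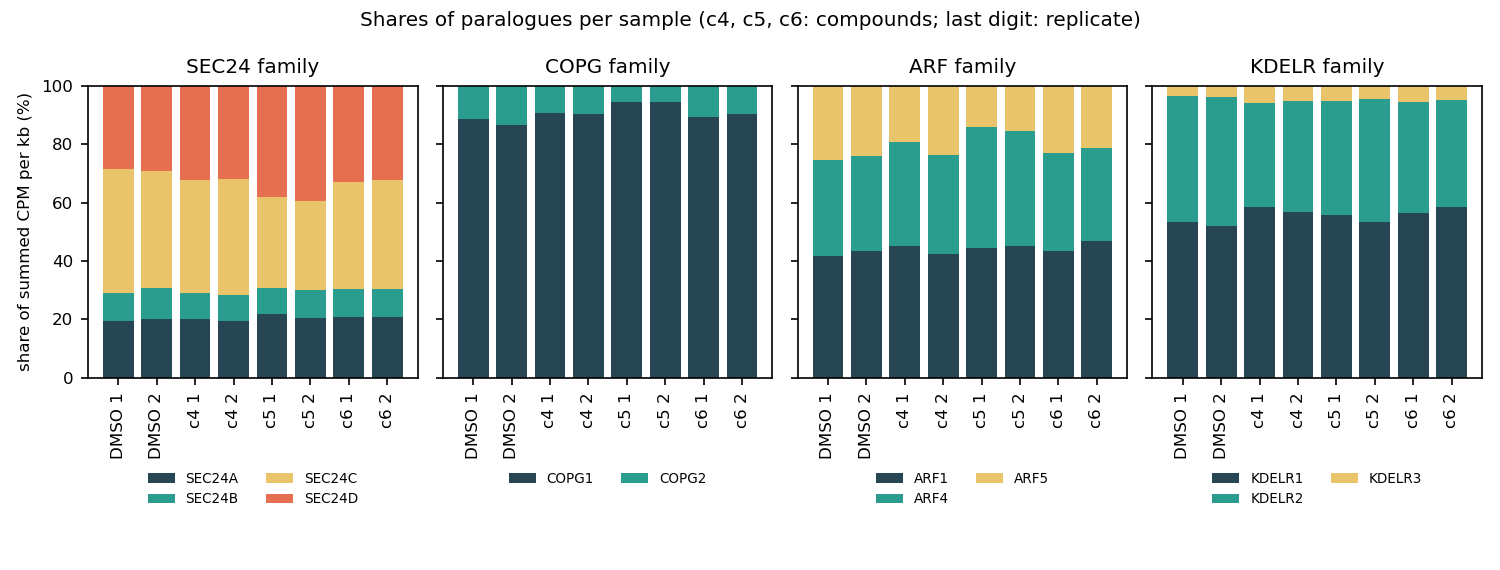
Share (y axis, percent) of each paralogue in the summed CPM per kilobase of its family in each of the 8 samples (x axis), for the SEC24, COPG, ARF and KDELR families. SEC24D takes 38.1% and 39.6% of the SEC24 signal with compound 5 against 28.3% and 29.3% with DMSO, and COPG2 takes 5.48% and 5.44% of the COPG signal against 11.4% and 13.4%.

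Of the cargo receptors, 6 of 15 rose with compound 5 and 1 fell, the median log2 fold change was 0.29, and the summed level increased by 21.4%. KDEL receptors return ER chaperones that leak to the Golgi. The scarce KDELR3 had 26.6 and 26.0 CPM with DMSO and 41.6 and 38.5 CPM with compound 5 (log2 0.61 ± 0.14, adjusted p = 0.00794). The abundant KDELR1 and KDELR2 did not pass the test (log2 0.29, 95% interval 0.05 to 0.53, and log2 0.13, 95% interval -0.14 to 0.40), although DESeq2 called KDELR1 (adjusted p = 0.0265). KDELR3 made up 3.53% and 3.86% of the family signal per kilobase with DMSO and 4.99% and 4.56% with compound 5.

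LMAN1 and MCFD2 form the receptor that carries coagulation factors V and VIII out of the ER. LMAN1 had 287 and 300.0 CPM with DMSO and 444 and 394 CPM with compound 5 (log2 0.51 ± 0.11, adjusted p = 0.00564). MCFD2 had 299 and 333 CPM with DMSO and 452 and 425 CPM with compound 5 (log2 0.47 ± 0.10, adjusted p = 0.00745), so both partners were higher. Of the p24 family of vesicle proteins, TMED7 had 123 and 134 CPM with DMSO and 196 and 186 CPM with compound 5 (log2 0.57 ± 0.10, adjusted p = 0.00255), although 23.3% of its 31-base words also occur in other genes, chiefly the TMED7-TICAM2 readthrough. TMED2 rose by a log2 of 0.37 (adjusted p = 0.0263), with 293 and 282 CPM with DMSO and 384 and 358 CPM with compound 5, a call that library-size or upper-quartile scaling ended. TMED3, TMED9 and TMED10 did not pass, although TMED10 was called by DESeq2 (adjusted p = 0.0259) and by edgeR with the replicate number as a block (adjusted p = 0.049). SURF4, a receptor for soluble secreted proteins, had 434 and 422 CPM with DMSO and 567 and 591 CPM with compound 5 (log2 0.44 ± 0.10, adjusted p = 0.0111). ERGIC2, which cycles between ER and Golgi, fell (25.5 and 23.8 to 20.1 and 17.3 CPM, log2 -0.40, adjusted p = 0.0422), a call that DESeq2 did not make (adjusted p = 0.201). LMAN2, ERGIC1 and ERGIC3 did not pass.

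All 8 tethers and SNAREs rose, by log2 values from 0.32 to 1.01, and in all 8 the compound 5 samples lay above both DMSO samples, against 32.9% of all genes. GOLGA2, also called GM130, is the golgin that captures incoming vesicles on the cis-Golgi (chr9:128255829-128275995). It had 64.1 and 71.3 CPM with DMSO and 142 and 131 CPM with compound 5, a 2.02-fold rise (log2 1.01 ± 0.13, adjusted p = 0.000455). USO1, the tether p115 that binds GOLGA2, had 129 and 138 CPM with DMSO and 203 and 186 CPM with compound 5 (log2 0.54 ± 0.11, adjusted p = 0.00492). The Golgi SNARE STX5 had 49.9 and 45.6 CPM with DMSO and 74.8 and 74.9 CPM with compound 5 (log2 0.65 ± 0.11, adjusted p = 0.0019). Its partner GOSR2 went from 55.2 and 55.6 CPM to 81.2 and 80.2 CPM (log2 0.54 ± 0.10, adjusted p = 0.00308). YKT6, BET1, SEC22B and GOSR1 had log2 values of 0.49, 0.37, 0.33 and 0.32, and the calls of the last 3 were lost with library-size or upper-quartile scaling, that of BET1 also in DESeq2 (adjusted p = 0.115).

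Of the CREB3 family, CREB3 had 28.8 and 28.2 CPM with DMSO and 43.0 and 42.4 CPM with compound 5 (log2 0.58 ± 0.12, adjusted p = 0.00661). CREB3L2 had 188 and 236 CPM with DMSO and 244 and 226 CPM with compound 5, which overlapped (log2 0.15, 95% interval -0.21 to 0.51). CREB3L1 was at 0 counts in 7 of the 8 samples and at 0.165 CPM in compound 6 replicate 2, where 3 counts would be 0.247 CPM. These are transcript levels, and the proteolytic release of the factors was not measured.

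Compound 4 changed few members. In edgeR, 2 of 54 rose (3.7%, against 6.5% of all genes called higher), and 0 fell (against 5.42% of all genes called lower), with 13 members at an unadjusted p under 0.05 (24.1%, against 27.0% of all genes) and 4 members called by DESeq2. The members' median log2 fold change was 0.11, against 0.0 over all genes. KDELR3 had 41.2 and 43.8 CPM with compound 4 against 26.6 and 26.0 CPM with DMSO (log2 0.70 ± 0.13, adjusted p = 0.00861). GOLGA2 had 95.8 and 93.6 CPM against 64.1 and 71.3 CPM (log2 0.48 ± 0.13, adjusted p = 0.0342). Both samples lay above both DMSO samples in 24 of the 54 members (44.4%, against 27.5% of all genes).

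MIA3 and COPE, with log2 values of 0.52 and 0.37, were called by DESeq2 (adjusted p = 0.0412 for each), whereas edgeR gave them adjusted p values of 0.081 and 0.0642. Fitted with no count filter, edgeR called both, and after a correction for length and GC content it called MIA3. The number called was 0 without either DMSO replicate, 1 without either compound 5 replicate, 8 without compound 4 replicate 1 (5 higher and 3 lower) and 3 without compound 4 replicate 2. The share of all genes called also moved, from 11.9% to 2.5% to 4.95% without a DMSO replicate, 9.3% and 9.47% without a compound 5 replicate, and 12.4% and 10.0% without compound 4 replicates 1 and 2, so the 8 members (14.8%) lay near the background. GOLGA2 was not called in any of these 6 fits, and KDELR3 was called in the 4 that kept both DMSO replicates. Compound 4 replicate 2 stood apart from the other samples, in that its deviation from the mean level of all samples correlated with transcript length across genes (Spearman's rho -0.48, against -0.217 to 0.297 in the other 7), and the part of this in the results was not tested beyond a correction for length and GC content, with which 7 members (13.0%) and 15.7% of all genes were called.

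With compound 6, edgeR called 0 of 54 members in either direction, against 2.8% of all genes called higher and 1.6% called lower. At an unadjusted p under 0.05 there were 8 members (14.8%, against 20.0% of all genes), and DESeq2 called 1, MIA3 (1.85%, against 3.13% of all genes). The median log2 fold change of the members was 0.04, against 0.003 over all genes, and both samples lay above both DMSO samples in 21 members (38.9%, against 26.3% of all genes). The 3 smallest adjusted p values belonged to KDELR3, GOLGA2 and MIA3. KDELR3 had 42.3 and 33.3 CPM (log2 0.52, 95% interval 0.22 to 0.82, adjusted p = 0.058), GOLGA2 79.8 and 101 CPM (log2 0.42, 95% interval 0.14 to 0.71, adjusted p = 0.0911) and MIA3 66.1 and 86.5 CPM (log2 0.56, 95% interval 0.17 to 0.95, adjusted p = 0.103). In each of these both compound 6 samples lay above both DMSO samples. The 3 comparisons with DMSO share the same 2 control samples. With 1 library left out, the median log2 fold change of the members with compound 6 lay between 0.04 and 0.06.

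Direct comparison at the unequal concentrations showed higher levels with compound 5 than with compound 4 for 23 members (42.6%, against 6.91% of all genes called higher) and lower levels for 1 (1.85%, against 7.04% of all genes called lower), with a median log2 difference of 0.30 against -0.03 over all genes. Against compound 6, 24 members were higher with compound 5 (44.4%, against 4.76%) and 1 was lower (1.85%, against 5.16%), with a median of 0.34 against -0.02. These comparisons share the compound 5 samples. Of the 34 members that rose against DMSO, 20 were also higher than with both other compounds, as were 20.2% of the 1857 genes that rose against DMSO. They included SEC23A, SEC23B, SEC24A, SEC24B, SEC24D, MIA3, SEC16A and TFG of the COPII side and COPA, COPB1, COPB2, COPG1 and ARCN1 of the COPI coat. With the replicate number as a block 16 of the 20 kept all 3 calls (SEC23A, SEC24B, STX5 and USO1 did not), and COPE was also lost against compound 6. With library-size or upper-quartile scaling 9 of the 20 kept them. Those lost were SEC23A, SEC24B, COPA, COPB2, COPG1, ARCN1, ARF4, SURF4, TMED2, STX5 and USO1, while MIA3, SEC24A, SEC24D, SEC16A and COPB1 were among the 9.

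The largest positive differences were again in MIA3, whose 163 and 136 CPM under compound 5 stood against 87.0 and 62.3 under compound 4 and 66.1 and 86.5 under compound 6 (log2 1.00 and 0.97, adjusted p = 0.00857 and 0.0092). SEC24D, at 127 and 103 CPM under compound 4 and 119 and 117 under compound 6, was lower there than with compound 5 by log2 values of 0.84 and 0.81 (adjusted p = 0.00535 and 0.00433). SEC16A differed by 0.81 from compound 4 and 0.64 from compound 6 (adjusted p = 0.012 and 0.0299). GBF1, at 85.0 and 61.8 CPM with compound 4, was higher with compound 5 by 0.72 (adjusted p = 0.0141), and the interval against compound 6, 0.12 to 0.76, had an adjusted p of 0.0819. SEC24A was 0.66 above compound 4 (adjusted p = 0.0109). ARF4 (173 and 155 CPM under compound 6), SURF4 (393 and 373) and TMED2 (266 and 225) lay below both compound 5 samples by log2 values of 0.61, 0.60 and 0.60, and the differences from compound 4 were 0.39, 0.39 and 0.44. All 6 were called, but those of ARF4 and SURF4 against compound 4 were lost with library-size or upper-quartile scaling.

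The lower members were SEC16B against compound 4 (3.48 and 2.59 against 7.18 and 6.86 CPM, log2 -1.22, adjusted p = 0.014) and COPG2 against compound 6 (19.2 and 18.2 against 29.2 and 26.4 CPM, log2 -0.57, adjusted p = 0.0205, and 0.0553 in DESeq2). KDELR3 overlapped between compounds, with a log2 difference of -0.09 from compound 4 (95% interval -0.38 to 0.20) and 0.09 from compound 6 (95% interval -0.21 to 0.38). CREB3 was 0.25 above compound 4 (95% interval -0.02 to 0.52) and 0.24 above compound 6 (95% interval -0.03 to 0.51), neither of which was called, although both were after the length and GC correction. Besides KDELR3 and CREB3, the members that rose against DMSO but that edgeR called against neither other compound were ARF1, BET1, GOSR1, GOSR2, MCFD2, MIA2, SEC13 and SEC22B. Other settings did call some of these. DESeq2 called MCFD2 against both and ARF1 and SEC13 against compound 6, and a minimum of 10 counts in every sample called MCFD2 against both. RLE scaling called MCFD2 against both, SEC22B against compound 4 and ARF1 against compound 6. The length and GC correction called ARF1, BET1 and SEC13 against both, and MCFD2 and GOSR2 against compound 6.

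**Figure D5:**
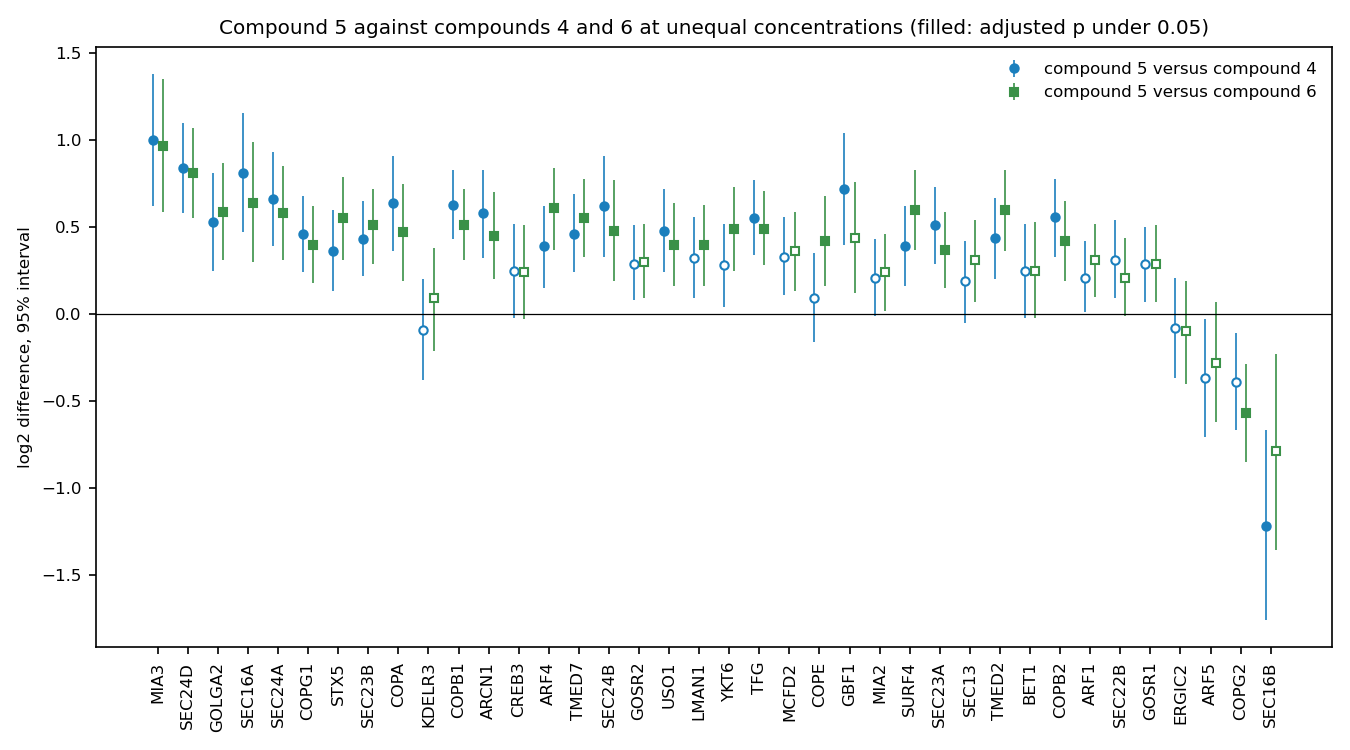
Log2 difference of compound 5 from compound 4 (circles) and from compound 6 (squares), with 95% intervals (y axis), for the 38 members called against DMSO with compound 5 (x axis, ordered by that fold change), with filled points for adjusted p under 0.05. MIA3 and SEC24D have the largest positive differences, SEC16B the largest negative ones, and the KDELR3 intervals include 0 for both compounds.

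The calls over all genes as well as those of the members depended on few samples. Against compound 4 the 24 calls became 2 without either compound 5 replicate and 13 without compound 4 replicate 2, and against compound 6 the 25 calls became 1 and 3 without compound 5 replicates 1 and 2, 3 and 12 without compound 6 replicates 1 and 2, and 16 without DMSO replicate 1. The share of all genes called moved in the same fits from 13.9% to 0.828% and 1.25% without compound 5 replicates 1 and 2 and 4.32% without compound 4 replicate 2, against compound 4. Against compound 6 it moved from 9.91% to 1.07% and 2.07%, 1.57% and 7.58%, and 6.39%, in the order given for the members. With upper-quartile scaling the split over all genes moved from 926 higher and 943 lower to 615 and 1248 against compound 4 and from 638 and 691 to 421 and 1044 against compound 6.

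In edgeR, few genes of any kind were called between compounds 4 and 6, and no member was. edgeR called 0 of 54 members (against 0.0448% of all genes called in either direction), 5 had an unadjusted p under 0.05 (9.26%, against 9.81% of all genes), and DESeq2 called 0. The median log2 difference, compound 4 minus compound 6, was 0.06 against -0.005 over all genes. The cargo receptors had the highest median of the sub-complexes, 0.16, and included TMED9 (292 and 375 against 253 and 250 CPM), whose log2 difference of 0.41 had a 95% interval of 0.13 to 0.68 and an adjusted p of 0.372. For MIA3 the interval was -0.42 to 0.35 and for GOLGA2 -0.22 to 0.34. Without compound 4 replicate 1, TMED9 was called.

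In a wider list of 74 other genes of the route, 73 were tested and 26 rose and 5 fell with compound 5 (35.6% and 6.85%, against 13.9% and 14.2% of all genes), with a median log2 fold change of 0.19. By group, 5 of 8 COG complex genes (2 others fell), 4 of 7 golgins and stacking proteins, 3 of 4 ARF GTPase activators and 3 of 6 RAB GTPases rose, whereas of the 14 TRAPP complex genes 3 rose and 2 fell. Among the other groups 1 of 14 further cargo receptors rose (7.14%), as did 3 of 10 further SNAREs, 2 of 3 NRZ tether genes and 1 of 3 COPII coat regulators, and of 4 CREB3 family and protease genes 1 rose and 1 fell. GOLGA3, a golgin, had 56.1 and 70.3 CPM with DMSO and 166 and 130 CPM with compound 5 (log2 1.23, adjusted p = 0.00122). ARFGAP3, which ends the ARF1 cycle on COPI vesicles, had 54.6 and 59.6 CPM with DMSO, 118 in both samples of compound 5 (log2 1.05, adjusted p = 0.00031) and 72.5 and 83.5 under compound 4 (log2 0.45, adjusted p = 0.038). The compound 4 call of ARFGAP3 was lost with library-size scaling, with only the groups compared, and without either DMSO replicate, compound 4 replicate 2 or either compound 5 replicate. BLZF1, the golgin-45 partner of the stacking protein GORASP2, had 5.12 and 8.22 CPM with DMSO and 12.3 and 13.4 under compound 5 (log2 0.93, adjusted p = 0.0086).

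The largest decreases rest on few counts. TRAPPC6A had 3.64 and 3.45 CPM with DMSO and 1.10 and 1.81 CPM with compound 5 (log2 -1.26, adjusted p = 0.015, and 0.069 in DESeq2). CREB3L4, a CREB3 family member, had 10.0 and 5.42 CPM with DMSO and 3.02 and 3.93 CPM with compound 5 (log2 -1.13, adjusted p = 0.0184). Both calls were lost without DMSO replicate 1 or compound 5 replicate 1, that of TRAPPC6A also without DMSO replicate 2, and that of BLZF1 without DMSO replicate 1 or compound 5 replicate 2. With compound 4, 6 genes of the wider list rose and 1 fell (8.22% and 1.37%, against 6.5% and 5.42% of all genes). With compound 6 edgeR and DESeq2 both called 0, with 18 at an unadjusted p under 0.05 (24.7%, against 20.0% of all genes). Against compound 4, 14 were higher and 2 lower with compound 5 (19.2% and 2.74%, against 6.91% and 7.04% of all genes; with the replicate number as a block GOLGA3 was lost, adjusted p = 0.0597), and against compound 6, 9 were higher and 0 lower (12.3%, against 4.76% of all genes called higher).

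Transcript length was associated with the change in compound 5 over all genes (Spearman's rho 0.209 across 13325 genes, which are not independent replicates) and in the members (rho 0.154, 54 genes). Over 4 classes of transcript length the median log2 fold change lay between 0.24 and 0.54 for the members and between -0.18 and 0.12 for all genes, and the members' median was the higher in each class. After a correction for length and GC content, chosen after the data had been seen, 43 members were called with compound 5 (79.6%, against 33.8% of all genes, where 70.4% and 28.1% were called without it), of which 36 were among the 38. GOSR1 and SEC22B were lost, and SEC31A, PREB, KDELR1, TMED3, TMED9, TMED10 and LMAN2 were gained.

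Of the 54 tested members, edgeR with the settings given below called 13 in no comparison: SAR1B, SEC24C, SEC31B, PREB, COPZ1, KDELR1, KDELR2, TMED3, TMED9, LMAN2, ERGIC1, ERGIC3 and CREB3L2. DESeq2 called 3 of these, PREB and KDELR1 with compound 5 against DMSO and CREB3L2 with compound 5 against compound 4. Other edgeR settings called some as well. With compound 5 against DMSO, COPZ1 was called lower under library-size or upper-quartile scaling, and SEC24C and SAR1B were called with only the groups compared. SEC31B was called against compound 4 under upper-quartile scaling or with at least 10 counts in every sample. The DMSO levels of the 13 spanned nearly the whole range of the list, from SEC31B (0.323 ± 0.124 CPM per kilobase, SD, n = 2) to ERGIC3 (220 ± 5.66). Called members also ranged widely, from SEC16B (1.28 ± 0.184) to SURF4 (144 ± 3.54).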

How the data were processed

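RNA sequencing of 8 samples in 4 groups was used. Per the labels and the study's methods, the authors checked reads with FastQC 0.12.0, quantified transcripts with Salmon 1.5.0 against a GENCODE transcriptome on GRCh38, and deposited estimated counts summarised per gene. The deposited values were already whole numbers and were used unchanged. GENCODE 29, used here for lengths and coordinates, is not the release the authors used. No column of the table was left unmapped, and no comparison made by the authors (DESeq2 1.38.3 in their notes) was used.

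In R 4.3.3, edgeR 4.0.16 (filterByExpr, TMM, quasi-likelihood F test, all 8 samples in 1 fit with 4 residual degrees of freedom) gave log2 fold changes, and p-values were adjusted by Benjamini-Hochberg over all 13404 genes tested, with calls at 0.05. DESeq2 1.42.0 served as an alternative. The scripts were tested on simulated data. CPM per kilobase divides by transcript length. With 9472261 to 13308975 counts per sample, 3 counts correspond to 0.234 to 0.313 CPM, which covers counting error only.

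Members and lists were chosen with earlier results of these data known. Values in every sample were given for up to 4 called members per sub-complex with the largest absolute log2 fold change for compound 5, up to 10 members called for compound 4 or 6, up to 6 called in each direct comparison, ARF4 and the CREB3 family, and up to 5 other pathway genes. The other members were named where their sub-complex was described. The labels tie the replicate number to day 1 or day 2 without saying what the day marks. Deviations of same-numbered samples correlated between -0.0826 and 0.16 over the 6 pairs of groups, so the fit had no block, and calls of members that a block changed are given beside the results. Alternatives covered scaling, filters, tool, block, samples in the fit, threshold, shared sequence and each replicate left out.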

Additional observations from a re-analysis of the deposited data

How the results depend on the processing

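No member called in any of the 6 comparisons reversed under the alternatives run. Over the single genes named, 3317 of the values under other settings stayed on their side of the threshold, 143 gained a call and 78 lost one, and with 1 library left out the numbers were 2510, 48 and 274. With 2 samples per group, a fit without 1 library has 3 residual degrees of freedom and assumes that the lone sample varies like the other groups. Correction for length and GC content was chosen after seeing the data. The cause of the changes listed here was not tested.

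With 1 library left out, the members called ranged from 0 to 8 for compound 4, 18 to 44 for compound 5 and 0 to 2 for compound 6 against DMSO, from 2 to 26 for compound 5 against compound 4, 1 to 30 for compound 5 against compound 6 and 0 to 1 for compound 4 against compound 6. The medians ranged from 0.10 to 0.15, 0.39 to 0.41, 0.04 to 0.06, 0.30 to 0.36, 0.33 to 0.40 and 0.0 to 0.06 in the same order.

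For compound 4 against DMSO, 5 members were called with no filter, 7 after the length and GC correction, 9 with that correction and the replicate block, 4 by DESeq2 and 1 at an adjusted p under 0.01, against 2. Of all genes 9.97%, 15.7%, 16.2% and 6.11% were called in the first 4 of these fits, against 11.9%, so the members' shares (8.93%, 13.0%, 16.7% and 7.41%, against 3.7%) lay near the background. For compound 5 against DMSO, 23 were called at 0.01, against 38, while calls over all genes went from 3763 to 1809. For compound 6 against DMSO, 3 were called with no filter (5.36%, against 6.34% of all genes). With at least 10 counts in every sample 1 was called (1.85%, against 5.72%), and with only the groups compared 1 (1.85%, against 6.78%). The length and GC correction called 2 (3.7%, against 8.53%), also with the block added (3.7%, against 8.45%), and DESeq2 called 1 (1.85%, against 3.13%). Without these changes 0 were called, against 4.4% of all genes. For compound 5, 4 members differed from compound 4 at 0.01, against 24, while calls over all genes went from 1869 to 279. From compound 6, 6 members differed at 0.01, against 25, while calls over all genes went from 1329 to 282. In that comparison 16 members were called under upper-quartile scaling and 16 under library size alone, while calls over all genes rose to 1465 and 1469. With length and GC correction and the block, 38 members and 2207 of all genes differed from compound 6.

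The median log2 fold change of the members against DMSO under upper-quartile scaling was 0.09 for compound 4 and 0.30 for compound 5. Under library size alone it was 0.07, 0.28 and 0.01 for compounds 4, 5 and 6. The length and GC correction gave 0.15, 0.46 and 0.06, and with the block 0.15, 0.45 and 0.06. Compound 5 against compound 4 had 0.24 with either scaling and 0.36 with the correction, with or without the block, and against compound 6 0.26 with either scaling. Compound 4 against compound 6 had 0.04 with either scaling or at least 10 counts, and 0.05 with RLE scaling, no filter, only the groups compared, DESeq2 or without members sharing over 50% of their 31-base words.

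The labels do not say what the day behind the replicate number marks. With the replicate number as a block, 38 members were called with compound 5 against DMSO (35 higher, 3 lower; ARF5 lost, TMED10 gained), 2 with compound 4 and 0 with compound 6, 23 between compounds 5 and 4, 21 between compounds 5 and 6 and 0 between compounds 4 and 6. Of the 20 members above DMSO and both other compounds, 16 kept all 3 calls.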
